A study of Mus musculus with 8 samples.

Results

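The genes described here encode the nuclear-encoded subunits of the mitochondrial respiratory chain and ATP synthase, together with cytochrome c (Cycs). They were chosen by symbol: genes with a probe set assigned to exactly 1 gene whose symbol begins with Ndufa, Ndufb, Ndufc, Ndufs or Ndufv and a number, with Uqcr, with Cox4 to Cox8 or with Atp5, plus Sdha, Sdhb, Sdhc, Sdhd and Cycs. The rule found 80 of the 17097 measured genes. They comprised 32 genes of complex I, 4 of complex II, 7 of complex III, 19 of complex IV, 17 of complex V and Cycs. Ndufa4 and Ndufa4l2 were counted with complex IV, and complex I included Ndufs5-ps, whose symbol is that of a pseudogene. Another 9 genes that the rule names, among them Ndufa13, Uqcrh and Cox7b, had no probe set assigned to 1 gene alone and were not analysed here. The 13 subunits encoded by mitochondrial DNA were not analysed here either.

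Gene expression had been measured by microarray in fibroblasts sorted from the dermis of 8 mice, 1 array per animal. In the GW9662 group (n = 4), 150 nmol of GW9662, a covalent inhibitor of PPARG, a nuclear receptor, had been applied in 300 µl acetone to the back 3 times a week for 6 months. The vehicle group (n = 4) had received acetone alone on the same schedule, and all animals were 12 months old at the start. Strain and sex are not given in the sources used here. The question was how prolonged PPARG inhibition alters the transcriptome of fibroblasts in ageing skin. The cells had been sorted as positive for Pdgfra and CD34 and negative for CD45, CD117, CD24, CD31 and EpCam, and the RNA of 5000 cells was amplified over 21 cycles before hybridisation. The drug was applied to whole skin, so the labels do not tell whether it acted on the fibroblasts or on their neighbours.

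The respiratory chain passes electrons from NADH (complex I) and succinate (complex II) through complex III and cytochrome c to oxygen at complex IV. Complexes I, III and IV pump protons across the inner mitochondrial membrane, and ATP synthase, complex V, uses the proton gradient to make ATP. Most subunits are encoded in the nucleus, under regulators that include NRF1, GABPA, ERR receptors and PGC-1 coactivators, and are assembled with the few mitochondrially encoded ones. PPARG is best known in fat, where its activation accompanies mitochondrial biogenesis.

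Values are log2 signal intensities. The levels of different probe sets cannot be set against each other as amounts of transcript, and no detection calls were used. The sorted cells had Col1a1, a collagen chain of fibroblasts, at 12.32 to 12.59 in GW9662 samples and 12.25 to 12.51 in vehicle samples. The sort gene Cd34 had 10.66 to 10.75 in GW9662 samples and 10.49 to 10.81 in vehicle samples. The probe set of Pdgfra, the other sort gene, was dim in all 8 samples, at 4.80 to 5.13 in the GW9662 group and 4.63 to 5.08 in the vehicle group. Over the 8 fibroblast markers, the mean lay between 10.05 and 10.18 in GW9662 samples and between 9.91 and 10.21 in vehicle samples. The fourth vehicle sample, called vehicle 4, stood apart, at 22.2 on the first principal component of all genes against -10.4 to 5.49 for the other 7.

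None of the 80 genes passed the test between GW9662-treated and vehicle-treated fibroblasts, and neither did any other gene. In limma, the share of all 17097 genes with an adjusted p under 0.05 was 0%, with a lowest adjusted p of 0.997. Without adjustment, 578 genes (3.38%) had p under 0.05, and none of the 80 did. With the replicate number as a block, 825 genes (4.83%) had an unadjusted p under 0.05, among them Ndufs8 and Ndufa6, and the lowest limma adjusted p was 0.966. The number was read as marking animals taken on the same day. No subunit gene had 2 groups without overlap, against 300 of all genes (1.75%).

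The log2 fold changes, GW9662 minus vehicle, ran over the 80 genes between -0.37 (Ndufs8) and 0.34 (Ndufa4l2), with a median of -0.04. They were below 0 for 56 genes and above 0 for 24, which is 70.0% below 0, against 52.9% of all genes and 51.6% of the brighter genes, those above the median gene in mean signal, which held 76 of the 80. The median was -0.0050 over all genes. Single libraries moved the subunits' values: without vehicle 4, 68 genes were below 0 with a median of -0.07, without GW9662 2 the median was -0.08, and 46 genes were below 0 without GW9662 1 (median -0.03) and 48 without GW9662 3 (median -0.02). The median of complex III was 0.01 without GW9662 3, and the median of complex IV was 0.0042 without GW9662 1. Of 46 named genes, 42 had a log2 fold change that moved by over 1.5 times in at least 1 alternative fit. The 95% interval of the log2 fold change lay inside -0.5 to 0.5 for 77 of the 80 subunit genes and for 95.2% of all genes. The 3 exceptions were Ndufs8, Ndufa6 and Ndufa4l2. Intervals and SEs here and below come from the fit without the replicate block unless the block is named. The subunit genes were not independent of each other, as the next values show, and the excess of values below 0 has no test here. Fewer cells of a type and less RNA per cell cannot be told apart in such bulk samples.

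**Figure D1:**
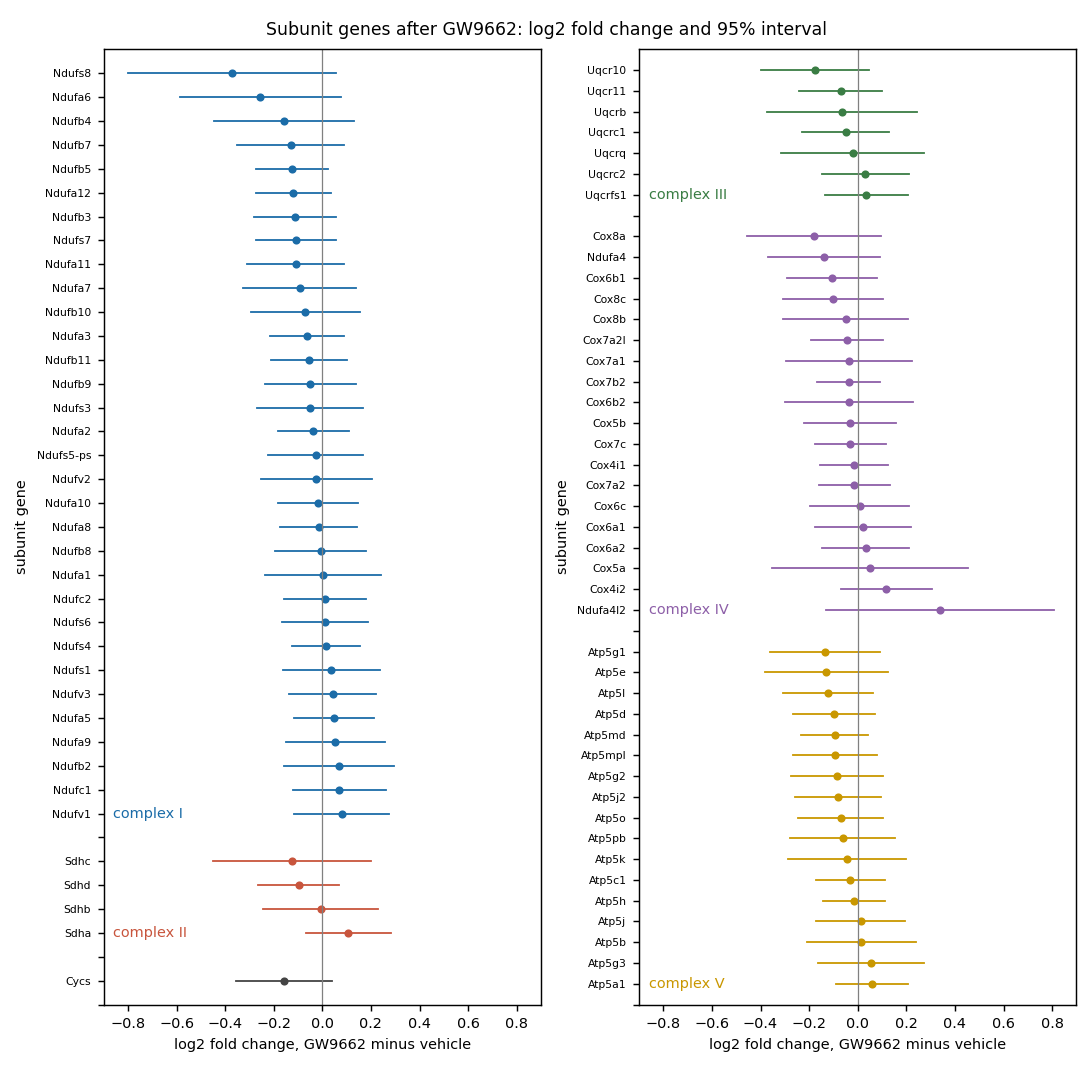
Log2 fold change (GW9662 minus vehicle, x axis) of each of the 80 genes, ordered within complexes down the page, with points for the estimates and lines for their 95% intervals from limma. In this fit, which has no replicate block, all 80 intervals cross 0, and Ndufs8, Ndufa6 and Ndufa4l2 have intervals that pass -0.5 or 0.5.

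The subunit genes varied together from sample to sample, and the treatment groups overlapped. Each gene's signal was expressed as its deviation from its own mean over the 8 samples and averaged over the 80 genes. GW9662 samples 1 to 4 had mean deviations of -0.10, 0.09, -0.07 and -0.0012. Vehicle samples 1 to 4 had mean deviations of 0.02, 0.06, 0.08 and -0.08. GW9662 2 was the highest sample of all, GW9662 1 was the lowest, and vehicle 4 lay below GW9662 3. The group means were -0.02 ± 0.09 for GW9662 and 0.02 ± 0.07 for vehicle (SD, n = 4 each), so their difference of -0.04 was smaller than the SD of either group. Within pairs 1 to 4, formed by replicate number, the differences were -0.12, 0.03, -0.15 and 0.08.

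Counting genes gave the same order of samples at its ends. Of the 80 genes, 14, 73, 15 and 40 lay above their own mean in GW9662 samples 1 to 4. In vehicle samples 1 to 4, 45, 60, 66 and 24 genes did so. The brighter genes as a whole also deviated by sample, at -0.02, 0.03, -0.0095 and -0.0061 in GW9662 samples and -0.0072, 0.03, 0.03 and -0.05 in vehicle samples. They had their highest value in GW9662 2 and their lowest in vehicle 4, and the part of this shift in the subunits' values was not tested.

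**Figure D2:**
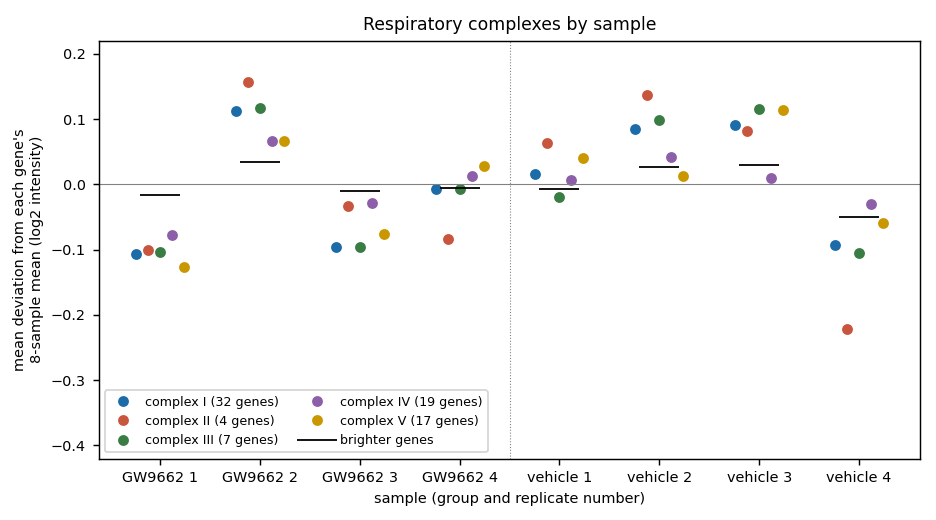
Mean deviation of the subunit genes of each complex from their own means (log2 units, y axis) in the GW9662 samples and, to their right, the vehicle samples, with 1 point per complex and sample and a black line for the brighter genes. In every complex the groups overlap, and GW9662 1 lies below 0 and GW9662 2 above 0 in each of the 5 complexes.

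Complex I, which oxidises NADH, was the most numerous. Its genes had a median log2 fold change of -0.03, with 21 below 0 and 11 above. The mean deviation of its 32 genes was -0.11, 0.11, -0.10 and -0.0073 in GW9662 samples 1 to 4. In vehicle samples 1 to 4 it was 0.02, 0.08, 0.09 and -0.09. The groups overlapped, and 30 of the 32 genes lay above their own mean in GW9662 2, against 5 in vehicle 4.

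Ndufs8, an iron-sulphur subunit of the core that hands electrons towards ubiquinone, had the lowest log2 fold change of all 80. Its signal was 7.16, 7.25, 6.79 and 6.32 in GW9662 samples 1 to 4, against 7.33, 7.18, 7.53 and 6.97 in vehicle samples 1 to 4. GW9662 3 and 4 lay below every vehicle sample, while GW9662 1 and 2 lay within the vehicle range. The log2 fold change was -0.37 ± 0.19 (SE; 95% interval -0.80 to 0.06; limma adjusted p = 0.997), and the pair differences were -0.17, 0.07, -0.74 and -0.65. It was -0.19 without GW9662 4 and -0.50 without GW9662 2. With the replicate block, its SE was 0.13, with an unadjusted limma p of 0.025 and an adjusted p of 0.966. The gene has 3 further probe sets, with log2 fold changes of -0.23, -0.37 and -0.33. The last of these had 6.48, 6.68, 6.37 and 6.39 in GW9662 samples and 6.88, 6.42, 6.95 and 6.99 in vehicle samples, and was the only set of the 138 for the 80 genes with an unadjusted p under 0.05 in a limma fit of all 45141 probe sets, of which 3.55% had one. All 4 probe sets had lower group means after GW9662, but they measure 1 transcript in the same animals.

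**Figure D3:**
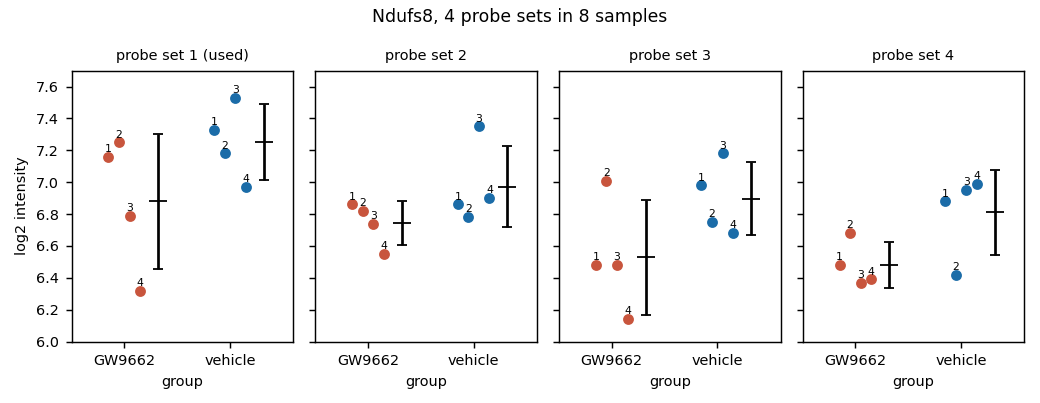
Log2 signal (y axis) of the 4 probe sets of Ndufs8, 1 panel each, in GW9662 samples on the left and vehicle samples on the right, with numbered points for animals and bars for the group mean ± SD. The groups overlap in each panel, and the differences of means run between -0.37 and -0.23.

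The other core subunits did not share that value. Of the 6 core subunits that were measured, Ndufs8 included, 4 had log2 fold changes below 0 and 2 above. Ndufs7, which carries the iron-sulphur cluster next to ubiquinone, had -0.11, Ndufs3 had -0.05 and Ndufv2, an iron-sulphur subunit of the NADH-oxidising tip, had -0.03. Ndufs1, the largest iron-sulphur subunit, had 0.04. Ndufv1, which holds the flavin that takes electrons from NADH, had 9.66, 9.89, 9.77 and 9.72 in GW9662 samples and 9.54, 9.86, 9.77 and 9.55 in vehicle samples. Its groups overlapped, with a log2 fold change of 0.08 (95% interval -0.12 to 0.28).

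Among the accessory subunits, which surround the core, Ndufb5 and Ndufa12 had the smallest p. Ndufb5, in the membrane arm, had 7.65, 7.77, 7.66 and 7.61 in GW9662 samples, against 7.93, 7.76, 7.77 and 7.73 in vehicle samples. Only GW9662 2 reached the vehicle range, and the log2 fold change was -0.13 ± 0.07 (SE; 95% interval -0.27 to 0.02), or -0.08 without vehicle 1 and -0.07 over the mean of its probe sets. Ndufa12 had 8.53, 8.78, 8.56 and 8.55 in GW9662 samples, against 8.76, 8.73, 8.74 and 8.67 in vehicle samples. GW9662 2 lay above all vehicle samples while the other 3 lay below them, and the log2 fold change was -0.12 ± 0.07 (SE; 95% interval -0.27 to 0.03), with -0.06 over the mean of its probe sets. Ndufa6, named after its values were seen, was lower in GW9662 in all 4 pairs by replicate number, with differences of -0.59, -0.11, -0.29 and -0.03. Its signal was 7.01, 7.40, 7.16 and 7.77 in GW9662 samples and 7.60, 7.51, 7.45 and 7.80 in vehicle samples, with overlapping groups and a log2 fold change of -0.26 (95% interval -0.59 to 0.08). The replicate block gave an SE of 0.098, an unadjusted limma p of 0.032 and an adjusted p of 0.966. Of all genes, 5.93% were lower in all 4 pairs, and of the 80 subunit genes 2 were, Ndufa6 and Sdhd.

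Complex II, succinate dehydrogenase, links the respiratory chain to the citric acid cycle and has only the 4 subunits measured here. Sdha, the flavoprotein that oxidises succinate, had 9.17, 9.22, 9.23 and 9.07 in GW9662 samples, against 9.06, 9.12, 9.20 and 8.88 in vehicle samples. It was higher in GW9662 in all 4 pairs, as were 5.46% of all genes and, among the 80, only Sdha and Atp5a1. The log2 fold change was 0.11 ± 0.08 (SE; 95% interval -0.07 to 0.28), or 0.05 without vehicle 4. Of the 3 further probe sets of Sdha, the brightest, at a mean signal of 8.97, had 0.07. The others were dim, at 3.74 and 3.39, and both had -0.09. The mean of the 4 sets, the dim ones included, had a log2 fold change of 0. Sdhb, the iron-sulphur subunit, had 8.62, 8.84, 8.60 and 8.68 in GW9662 samples and 8.78, 8.87, 8.74 and 8.38 in vehicle samples, a log2 fold change of -0.0075 (95% interval -0.24 to 0.23), or -0.11 without vehicle 4.

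The 2 membrane anchors of complex II had log2 fold changes below 0. Sdhc had 6.04, 6.72, 6.15 and 6.24 in GW9662 samples and 6.47, 6.59, 6.46 and 6.13 in vehicle samples (log2 fold change -0.13, 95% interval -0.45 to 0.20). The value for Sdhc was -0.04 without GW9662 1, -0.07 without vehicle 2, -0.08 without GW9662 3, -0.22 without vehicle 4 and -0.27 without GW9662 2. Sdhd had 4.36, 4.44, 4.48 and 4.27 in GW9662 samples and 4.54, 4.56, 4.52 and 4.32 in vehicle samples (log2 fold change -0.10, 95% interval -0.27 to 0.07), with -0.06 without GW9662 4 and -0.15 without vehicle 4. The probe set of Sdhd was dimmer than the median gene, and its 3 vehicle samples other than vehicle 4 lay above all GW9662 samples. Over the 4 genes, the mean deviation was -0.10, 0.16, -0.03 and -0.08 in GW9662 samples and 0.06, 0.14, 0.08 and -0.22 in vehicle samples, and vehicle 4 was the lowest of the 8.

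Complex III, which passes electrons from ubiquinol to cytochrome c, had 5 genes below 0 and 2 above, with a median log2 fold change of -0.05. Uqcr10, a small membrane subunit, had 7.99, 8.34, 8.18 and 8.48 in GW9662 samples, against 8.49, 8.46, 8.43 and 8.31 in vehicle samples. GW9662 1 and 3 lay below all vehicle samples, and the log2 fold change was -0.18 ± 0.10 (SE; 95% interval -0.40 to 0.05), or -0.09 without GW9662 1 and -0.29 without pair 4. Uqcr11, another small subunit, had -0.07 and Uqcrc1, a core protein of the matrix side, had -0.05. Uqcrfs1, the Rieske iron-sulphur protein, had a log2 fold change of 0.04. Cycs, the mobile carrier that also triggers apoptosis when released, had 8.23, 8.37, 8.25 and 8.12 in GW9662 samples, against 8.25, 8.34, 8.62 and 8.39 in vehicle samples. GW9662 1 and 4 lay below the vehicle range, GW9662 3 equalled its lowest value, and the log2 fold change was -0.16 ± 0.09 (SE; 95% interval -0.35 to 0.04), or -0.08 without vehicle 3 and -0.06 over the mean of its probe sets.

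Complex IV, cytochrome c oxidase, divides into subunits present in most tissues and isoforms known from muscle, testis, lung or low oxygen. The 8 isoform genes are Cox4i2, Cox6a2, Cox6b2, Cox7a1, Cox7b2, Cox8b, Cox8c and Ndufa4l2. The other 11 genes had log2 fold changes below 0 for 8 and above 0 for 3, with a median of -0.03. Their mean deviation was -0.16, 0.08, -0.06 and 0.05 in GW9662 samples and 0.01, 0.02, 0.12 and -0.07 in vehicle samples, with overlapping groups. In GW9662 1 all 11 lay below their own means.

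Cox8a, the ubiquitous form of the smallest subunits, had the log2 fold change farthest from 0 of these. Its signal was 8.45, 8.83, 8.69 and 9.10 in GW9662 samples, against 8.93, 8.79, 9.02 and 9.05 in vehicle samples, with GW9662 4 above and GW9662 1 and 3 below the vehicle range. The log2 fold change was -0.18 ± 0.12 (SE; 95% interval -0.46 to 0.10), or -0.07 without GW9662 1 and -0.29 without GW9662 4. Cox4i1, the common form of the regulatory subunit IV, had -0.02. Cox6b1 had -0.11, Cox6a1 0.02 and Cox7a2 -0.02, and Ndufa4, a subunit first assigned to complex I, had -0.14.

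The isoform genes had 3 values above 0 and 5 below, with a median log2 fold change of -0.04. Ndufa4l2, a relative of Ndufa4 that is induced by low oxygen, had the highest log2 fold change of the 80. Its signal was 8.84, 8.70, 8.90 and 8.60 in GW9662 samples, against 8.71, 9.0, 7.93 and 8.05 in vehicle samples. Vehicle 3 and 4 lay below all GW9662 samples, vehicle 2 lay above them and vehicle 1 among them. The log2 fold change was 0.34 ± 0.21 (SE; 95% interval -0.13 to 0.81; limma adjusted p = 0.997), and it was 0.17 without vehicle 3, 0.21 without vehicle 4 and 0.53 without vehicle 2.

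Vascular markers also varied among the vehicle samples. The mean of the 4 endothelial markers was 5.41 to 5.82 in GW9662 samples and 5.32, 5.60, 6.08 and 6.05 in vehicle samples 1 to 4. Kdr and Tek were above all GW9662 samples in vehicle 3 and 4, while Pecam1 and Cdh5 there lay within the GW9662 range. The mean of the 3 measured pericyte and smooth muscle markers was 4.75 to 4.94 in GW9662 samples and 4.82, 4.74, 5.22 and 4.90 in vehicle samples 1 to 4, of which only vehicle 3 lay above the GW9662 range. The part of these markers in the result was not tested.

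Cox4i2, the lung form of subunit IV, had 5.22, 5.28, 5.46 and 5.24 in GW9662 samples and 5.24, 5.22, 4.98 and 5.29 in vehicle samples, with a log2 fold change of 0.12 (95% interval -0.07 to 0.31), or 0.05 without vehicle 3 and 0.06 without GW9662 3. The striated muscle forms Cox6a2, Cox7a1 and Cox8b had 0.03, -0.04 and -0.05. The testis forms Cox6b2, Cox7b2 and Cox8c had -0.04, -0.04 and -0.10, the last being -0.04 without vehicle 4. The mean of 12 skeletal muscle markers was 4.27 to 4.31 in GW9662 samples and 4.28 to 4.37 in vehicle samples, below the sample medians of all probe sets (4.63 to 4.69). Of the 12, 1 gene, Tnnt3, had an unadjusted limma p under 0.05, with a log2 fold change of -0.21. Their part in the isoforms' values was not tested.

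Complex V, ATP synthase, had 13 genes below 0 and 4 above, with a median log2 fold change of -0.07. Its mean deviation was -0.13, 0.07, -0.08 and 0.03 in GW9662 samples and 0.04, 0.01, 0.11 and -0.06 in vehicle samples, with overlapping groups and pair differences of -0.17, 0.05, -0.19 and 0.09. Of the catalytic head and central stalk (Atp5a1, Atp5b, Atp5c1, Atp5d and Atp5e), 2 genes were above 0 and 3 below. The other 12 genes had 2 above 0 and 10 below, with a median of -0.08.

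Atp5md, a small membrane subunit needed for dimers of the synthase, had 9.53, 9.73, 9.61 and 9.71 in GW9662 samples, against 9.75, 9.72, 9.76 and 9.73 in vehicle samples. GW9662 1, 3 and 4 lay below all vehicle samples, and the log2 fold change was -0.10 ± 0.06 (SE; 95% interval -0.23 to 0.04), or -0.06 without GW9662 1. Atp5l, the membrane subunit g, had 9.29, 9.60, 9.45 and 9.65 in GW9662 samples and 9.65, 9.55, 9.64 and 9.64 in vehicle samples, with a log2 fold change of -0.12 (95% interval -0.31 to 0.06), or -0.05 without GW9662 1. The 3 genes of the proton-carrying ring, which encode the same mature subunit c, had -0.14 (Atp5g1), -0.09 (Atp5g2) and 0.06 (Atp5g3). Atpif1, the inhibitor that stops the synthase from running backwards and is not among the 80, had a log2 fold change of 0.0025.

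Across all 8 samples, most common subunits varied together and most tissue isoforms did not join them. Over the 3160 pairs of the 80 genes, the median Pearson correlation across the 8 samples was 0.40, against 0.006 over all pairs of measured genes and 0.035 over pairs of brighter genes. All these correlations share the same 8 arrays and are given as a description. With each group's mean subtracted the median was 0.42, and without vehicle 4 it was 0.44.

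Within complexes the medians were 0.55 for complex I, 0.59 for the 6 pairs of complex II, 0.27 for complex III, 0.10 for complex IV and 0.47 for complex V. Complex IV reached 0.53 over its 11 common subunits, against 0.05 over its 8 isoforms. Without vehicle 4, the medians were 0.57 for complex I, 0.33 for complex II, 0.13 for complex III, 0.18 for complex IV and 0.62 for complex V, and -0.05 for the isoforms. Between complexes, the medians were 0.54 for I with II, 0.51 for I with III and 0.47 for I with V. They were 0.44 for II with III, 0.42 for II with V and 0.39 for III with V. Pairs with complex IV had 0.26 with I, 0.13 with II, 0.24 with III and 0.24 with V.

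Each gene was then summarised by its median correlation with the other subunit genes. Of the 72 genes that are not isoforms, 70 had a median above 0, with a range of -0.13 to 0.64, and the 2 exceptions were Uqcrfs1 and Cox7a2l, a factor that joins complexes III and IV. The highest was Cox7a2, at 0.64. Of the 8 isoforms, 2 were above 0, with a range of -0.41 (Cox6a2) to 0.25 (Cox7a1). A like contrast appears between most partners, and was widest in these: Cox6a1 had 0.55 and its muscle form Cox6a2 -0.41, and Cox4i1 had 0.53 and its lung form Cox4i2 -0.34. Ndufa4 had 0.56 and Ndufa4l2 -0.06, Cox6b1 had 0.56 and Cox6b2 0.15, and Cox8a had 0.24, against -0.11 for Cox8b and -0.16 for Cox8c. The muscle form Cox7a1, at 0.25, lay below Cox7a2 but above Cox7a2l, at -0.04. The ranges overlapped, with Atp5c1 of the common subunits at 0.10. Of the 4 subunit genes dimmer than the median gene, 3 were isoforms (Cox4i2, Cox7b2 and Cox7a1). Cox8c, Cox6a2, Cox8b and Cox6b2, at mean signals of 5.56, 5.99, 6.14 and 6.53, were also dimmer than most subunit genes, and Ndufa4l2 had 8.59. Among the genes that are not isoforms, Sdhd at 4.44, Sdhc at 6.35 and Ndufs1 at 6.44 had median correlations of 0.33, 0.62 and 0.56. The part of dim signal in the isoforms' low correlations was not tested.

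**Figure D4:**
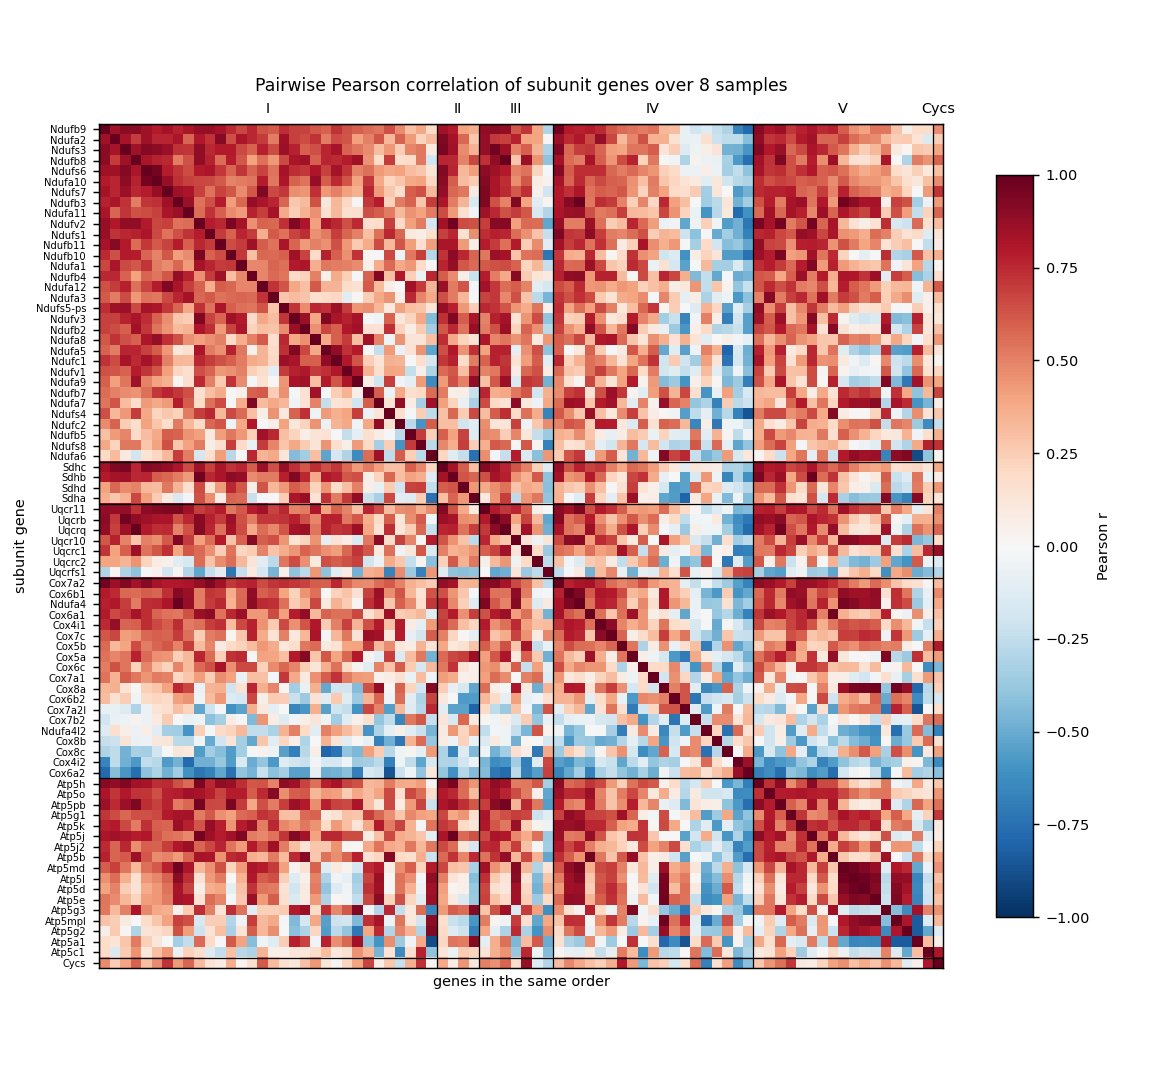
Pearson correlation over the 8 samples (colour) between every pair of the 80 genes, ordered by complex and within it by falling median correlation. Most of the map is positive (red), with a median of 0.40, and most isoforms of complex IV form a pale or negative (blue) band.

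The promoters of the subunit genes were searched for the binding motif of NRF1, a factor known for its sites in such genes. The windows ran from 250 bases before to 50 bases after the annotated start, from RefSeq on GRCm38.p6. Such windows existed for 64 of the 80 genes, some of which had several. The palindrome searched for, GCGC followed by AT and again GCGC, reads the same on both strands. It was in a window of 5 of the 64 genes (7.81%), against 235 of 13605 measured genes (1.73%) and 1.07% of all 27025 genes with windows. The ETS motif CCGGAAG, the kind bound by GABPA, was on either strand in 15 of the 64 (23.4%), against 15% of the measured genes. A match describes letters only. The windows of Atp5k and Cox6a1 held both motifs, and those of Atp5g2, Ndufa11 and Uqcrc1 held the palindrome without the ETS motif. Among all measured genes, overlap between the motifs was not examined. A shorter motif, TGCGCA, was also searched for and was in 16 of the 64 genes (25%), against 12.6% of the measured genes. The part of these motifs in the shared variation of the subunit genes was not tested. The 4 stretches with the palindrome before the start are shown 5′ to 3′ on the gene's strand, with the palindrome in capitals, since the genes differ in complex and in how they varied.
Atp5g2: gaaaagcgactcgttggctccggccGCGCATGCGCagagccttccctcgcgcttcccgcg
Atp5k: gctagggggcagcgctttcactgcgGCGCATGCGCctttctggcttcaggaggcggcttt
Cox6a1: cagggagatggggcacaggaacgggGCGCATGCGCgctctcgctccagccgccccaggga
Ndufa11: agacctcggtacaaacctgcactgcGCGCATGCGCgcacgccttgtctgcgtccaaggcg

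The stretch of Atp5g2 lies at chr15:102671055-102671114 on the minus strand, with the palindrome beginning 42 bases before the start. That of Atp5k, membrane subunit e of ATP synthase, lies at chr5:108434415-108434474 on the minus strand, 50 bases before. That of Cox6a1 lies at chr5:115349086-115349145 on the minus strand, 162 bases before. That of Ndufa11, an accessory subunit of the membrane arm of complex I, lies at chr17:56717677-56717736 on the plus strand, 60 bases before. In Uqcrc1 the palindrome begins at the 31st base after the start and its letters are not shown. Log2 fold changes of these genes were -0.09 for Atp5g2, -0.04 for Atp5k, 0.02 for Cox6a1, -0.11 for Ndufa11 and -0.05 for Uqcrc1. Their median correlations with the other subunit genes were 0.14 for Atp5g2, 0.55 for Atp5k, 0.55 for Cox6a1, 0.57 for Ndufa11 and 0.44 for Uqcrc1.

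Genes that build, feed or regulate the chain did not pass the test either. Of 43 measured assembly factors, 17 had log2 fold changes above 0 and 26 below, with a median of -0.02. Ndufaf1, which assembles complex I, had 4.05, 3.94, 4.20 and 4.00 in GW9662 samples and 3.71, 3.99, 3.96 and 3.75 in vehicle samples, a log2 fold change of 0.20 (95% interval 0.0033 to 0.39; limma adjusted p = 0.997). Coa8, an assembly factor of complex IV, had -0.16.

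Of 18 regulators of mitochondrial biogenesis and mitochondrial DNA, 12 were above 0 and 6 below, with a median of 0.02. Tfam, which packages mitochondrial DNA, had 0.07, Nrf1 had 0.02, Gabpa had 0.0050 and Esrra had -0.05. Polg, the mitochondrial DNA polymerase, had the smallest unadjusted p of the list, with 7.39, 7.58, 7.43 and 7.29 in GW9662 samples and 7.67, 7.57, 7.71 and 7.44 in vehicle samples (log2 fold change -0.18, 95% interval -0.36 to 0.0093). Esrrg, an ERR receptor, had 0.11.

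Enzymes that supply the chain leaned the other way from the subunits in count. Of 20 measured genes of pyruvate entry, the citric acid cycle and flavoprotein feeds, 14 were above 0 and 6 below, with a median of 0.04. Their mean signal was 7.26 to 7.41 in GW9662 samples and 7.30, 7.35, 7.37 and 7.12 in vehicle samples 1 to 4. Vehicle 4 was the lowest sample and the others lay within the GW9662 range, and the part of vehicle 4 in the count was not tested. Dlat, the acetyltransferase of pyruvate dehydrogenase, had 6.18, 6.36, 5.99 and 5.69 in GW9662 samples, against 5.90, 5.96, 5.88 and 5.43 in vehicle samples. It was higher in GW9662 in all 4 pairs while the groups overlapped, with a log2 fold change of 0.26 ± 0.15 (SE; 95% interval -0.08 to 0.60), or 0.14 without vehicle 4 and 0.16 without GW9662 2. With the replicate block, its unadjusted limma p was 0.0061. Pdhb, of the same enzyme, had 0.19, which was 0.05 without vehicle 4. Among 8 carriers and uncouplers, 5 were above 0, led by Vdac1, the outer membrane channel, at 0.15 (0.10 without vehicle 4), and Ucp1, the uncoupler of brown fat, had -0.13. Neither list had a gene past an adjusted p of 0.05 in limma, and no test set these lists against the subunits. With the replicate block, 2 of the 20 supply enzymes and 1 of the 8 carriers and uncouplers had an unadjusted limma p under 0.05. So did 1 of the 43 assembly factors and 1 of the 18 regulators, against 4.83% of all genes.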

How the data were processed

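The deposited file holds a log2 intensity with 2 decimals for each of 45141 probe sets on 8 arrays. Per the submitters' processing notes, RMA and the affy package were used, without versions, and RMA equalises the arrays. Thus a shift common to all genes cannot be seen. The base of the logarithm was read from the range of values, since no source used here states it. Gene names came from the platform annotation, updated by a RefSeq gene table. A single gene was found for 28898 sets, of which 209 kept the annotation's symbol, while 551 sets with several genes and 15692 unnamed here were not used. The set with the highest mean stood for each of 17097 genes. Of the 80 subunit genes, 39 had several sets, and in 14 of these the signs differed, by over 0.2 in Cox5b and Ndufc1. Sets that may share probes with related sequences (5 ending in x_at, 9 in s_at) stood for 14 subunit genes.

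GW9662 was compared with vehicle in limma 3.58.1 (R 4.3.3; lmFit and eBayes, no covariate, two-sided), adjusting p over all genes by Benjamini-Hochberg and calling those under 0.05. The procedure was tested on simulated data with independent genes and planted changes of 1 or 2 log2 units. These exceed every change of the subunit genes, so the simulation does not bear on changes as small as theirs. The members and gene lists were chosen with earlier results of these data known. Genes named were the 3 of smallest p per complex, Cycs, complex II, the isoform groups, the complex I core, genes with discordant probe sets and the 2 of smallest p per pathway list; others were chosen after their values were seen. Per the series' design text, sampling on a given day paired a GW9662 animal with a vehicle animal. That same-numbered samples shared a day was inferred here. The deviations of same-numbered samples from group means correlated at 0.11 to 0.20 over all genes. All 8 samples correlated best with their own number, so numbers were read as pairs. Some of these matches were narrow. Vehicle 2 had 0.163 with GW9662 2 and 0.159 with GW9662 1, and vehicle 3 had 0.114 with GW9662 3 and 0.111 with GW9662 2. Over the subunit genes alone, pair 1 had 0.02, pair 2 had 0.07, pair 3 had -0.07 and pair 4 had 0.43. Pairing in the subunit genes was thus clear in pair 4 only. No 2 samples shared over 2.95% of values. Nothing beyond 1 array per animal measures technical error, and the number of arrays limits the precision.

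Alternatives were the block, trended robust variances, brighter genes alone, mean probe sets, renewed quantile normalisation, median centring, array weights, each sample left out, pair 4 left out, and other thresholds. Correlations with group means subtracted and without vehicle 4 were added after seeing the data.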

Additional observations from a re-analysis of the deposited data

Results flagged for a closer look

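In 4 of 110 groups of 4 samples tested, a single sample lay far from the other 3 by Dixon's criterion, which chance meets in about 1 of 20 groups. Ndufa12 was 8.78 in GW9662 2, against 8.53 to 8.56 in the other GW9662 samples. Sdhd was 4.32 in vehicle 4, against 4.52 to 4.56 in the other vehicle samples. Atp5l was 9.55 in vehicle 2, against 9.64 to 9.65 in the others. Dlat, a pyruvate dehydrogenase subunit, was 5.43 in vehicle 4, against 5.88 to 5.96 in the others.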

How the results depend on the processing

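The replicate block left 0 subunit genes and 0 of all genes at a limma adjusted p under 0.05, as did the other fits, except that 1 gene outside the subunits, Col14a1, a fibril-associated collagen, passed (adjusted p = 0.0396) with pair 4 left out and the block, and at an unadjusted p under 0.05 the count was 578. The lowest adjusted p of a subunit gene in any fit was 0.841. The median of the 80 log2 fold changes stayed below 0 in all 17 alternative fits and was -0.10 without pair 4. Leaving out single samples gave 0 calls each time and medians of -0.08 to -0.02 for all 80 genes, -0.09 to -0.0042 for complex I, -0.13 to -0.0071 for complex II, -0.11 to 0.01 for complex III, -0.05 to 0.0042 for complex IV and -0.11 to -0.03 for complex V. The number of subunit genes below 0 lay between 46, without GW9662 1, and 68, without vehicle 4.

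Of 46 named genes, 17 turned sign in at least 1 fit, Sdha was 0 with mean probe sets, and the other 28 kept their sign, all of them without a call. The cause of these turns was not tested. At the end that kept the sign, leaving out single samples took Cox4i1 to -0.033, Cox6a2 to 0.0875, Cox7a2 to -0.048, Cox7a2l to -0.072, Cox8b to -0.12, Atp5g3 to 0.13, Atpif1 to 0.026, Ndufv2 to -0.12, Ndufs1 to 0.082, Cox5b to -0.0725, Sdhb to -0.11, Ndufs3 to -0.135, Cox6b2 to -0.13, Cox7a1 to -0.11, Uqcrc1 to -0.096, Cox6a1 to 0.081 and Ndufc1 to 0.12. Array weights gave Atpif1 -0.00015 and Cox6a1 -0.0083, and mean probe sets gave Ndufc1 -0.0375. Without GW9662 1, Cox4i1 had 0.023, Cox5b 0.0042, Cox7a2 0.0050 and Sdhb 0.014. Without GW9662 2, Atpif1 had -0.031, Cox6a1 -0.015 and Ndufs1 -0.0042. Without GW9662 3, Atpif1 had -0.0042, Cox6a2 -0.0050, Cox6b2 0.081, Cox7a1 0.045, Cox7a2 0.012, Ndufs3 0.0050, Ndufv2 0.0058 and Sdhb 0.021. Without GW9662 4, Cox8b had 0.059 and Ndufs1 -0.00083. Without pair 4, with or without the block, Cox6a1 had -0.06, Cox8b 0.09 and Ndufs1 -0.06. Without vehicle 1, Sdhb had 0.022. Without vehicle 2, Cox4i1 had 0.0050, Cox7a1 0.0475, Ndufv2 0.019 and Sdhb 0.052. Without vehicle 3, Cox5b had 0.04, Cox6a2 -0.0225, Cox7a2 0.0033, Ndufv2 0.016, Sdhb 0.0083 and Uqcrc1 0.014. Without vehicle 4, Atp5g3 had -0.024, Atpif1 -0.013, Cox6a1 -0.0525, Cox6b2 0.00083, Cox7a2l 0.0017 and Ndufs1 -0.022.

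With 4 animals per group, the median SE over the 80 genes was 0.085. Without detection calls, signal over background is unknown.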

Other observations

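Within ATP synthase, a group of small subunits varied almost in step, as seen on inspection of the correlations and therefore without a test. Across the 8 samples, Atp5l correlated with Atp5md at 0.96, with Atp5d at 0.97 and with Atp5e at 0.93. The same pattern reached other complexes: Cox8a of complex IV correlated with Atp5e at 0.96 and with Atp5mpl, a membrane proteolipid of ATP synthase, at 0.97, and Ndufa6 of complex I correlated with Atp5g2 at 0.93. Atp5e, the epsilon subunit of the central stalk, had 7.89, 8.25, 8.0 and 8.44 in GW9662 samples and 8.25, 8.16, 8.39 and 8.30 in vehicle samples, with GW9662 1 lowest and GW9662 4 highest.

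Atp5a1, the alpha subunit of the catalytic head, did not follow them. It correlated with Atp5l at -0.66 and with Ndufa6 at -0.90, and with Sdha, the flavoprotein of complex II, at 0.92. Atp5a1 had 10.18, 10.15, 10.17 and 10.02 in GW9662 samples and 10.08, 10.13, 10.12 and 9.95 in vehicle samples, with vehicle 4 lowest. These correlations rest on 8 samples of 2 groups that share arrays and amplification, and no cause was tested.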
